A study of Mus musculus with 4 samples.

Results

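The Sox genes of the B, D and E subgroups (Sox1, Sox2, Sox3 and Sox21 in B, Sox5, Sox6 and Sox13 in D, Sox8, Sox9 and Sox10 in E) were read on Affymetrix mouse expression arrays in NSCL61, a neural stem cell line, and in its Sox11-expressing derivative NSCL61-sox11. All probe sets that the platform annotation assigns to 1 of these genes alone were taken, with no choice by level or by change. This gave 26 probe sets of 10 genes, out of 45037 non-control probe sets and 18193 named genes. Both lines have the C57BL/6 background, are p53-/- and were grown as floating spheres without serum, with forskolin, PDGF and bFGF, and were started from E14.5 embryonic brain. The labels class the cells as neural stem cells that resemble glioma-initiating cells. NSCL61 gave 2 arrays and NSCL61-sox11 gave 2, 4 in all, and NSCL61-sox11 carries Sox11 expression in addition to the shared p53-/- genotype. NSCL61-sox11 is represented as 1 line, and neither the promoter that drives Sox11 nor the vector is given in the sources used here. According to the design text the derivative had lost its ability to form tumours in a host, and the lines were compared to find genes that distinguish them.

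Sox proteins bind DNA through an HMG box and bend it, and they usually act with partner factors. SoxB1 proteins (Sox1, Sox2 and Sox3) keep neural progenitors in an undifferentiated state, while the SoxB2 protein Sox21 opposes them at shared targets. SoxE proteins act in glia, neural crest and cartilage, with Sox9 needed for gliogenesis and Sox10 for oligodendrocyte and Schwann cell maturation. SoxD proteins have no activation domain of their own and modulate the activity of SoxE proteins. SoxC proteins (Sox4, Sox11 and Sox12) are best known from differentiating neurons, and Sox11 is the factor added here.

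All levels below are the deposited probe set values on a log2 scale, where 1 unit is a 2-fold difference, and differences are NSCL61-sox11 minus NSCL61. Levels of different probe sets are not compared, since probe sets differ in how strongly they bind. A probe set was tested if its mean over the 4 arrays was among the brightest 60%, which put the lowest tested mean at 5.15. It was called, and is said to have risen or fallen, at an adjusted p under 0.05 in limma, a linear model that shares variance information across probe sets, with Benjamini-Hochberg adjustment over all 27022 tested. The labels do not say whether separate cultures stand behind the arrays of a line. The p-values therefore cover only array-to-array spread, which may be technical. An exact permutation test of 2 arrays against 2 cannot give a two-sided p below 0.333. Leaving out either NSCL61 array leaves that line with 1 array, and calls over all genes also became fewer there. A call lost in such a fit is therefore not by itself particular to that gene.

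Arrays of 1 line had Pearson correlations of 0.995 and 0.994 across the tested probe sets, against 0.968 to 0.972 between the lines. Sox11 itself, the check of the labels, was higher in NSCL61-sox11 on its 6 probe sets, by 0.38 to 2.90. On 1431225_at, the brightest tested, it read 5.09 and 4.82 in NSCL61 and 7.74 and 7.97 in NSCL61-sox11 (log2 fold change 2.90, SE 0.14, limma adjusted p = 0.000126). Its NSCL61 mean there, 4.95, lies under the filter, so the size of that rise is uncertain, and the mean of the tested Sox11 probe sets gave 1.65. Of the neural stem cell markers, 6 could be tested: Slc1a3 rose (1.19), Pax6 and Vim fell (-0.45 and -0.21), and Nes, Msi1 and Hes5 were not called. Prom1 and Fabp7 lay below the level filter. Of the fibroblast and meningeal markers, 4 of 6 tested rose and 0 fell: Postn (3.33), Col1a1 (2.99), Pdgfrb (2.33) and Col1a2 (1.10). Postn was no longer called when either NSCL61 array was left out (adjusted p = 0.123 without array 1 and 0.0681 without array 2). Leaving out NSCL61-sox11 array 1 moved its change to 4.49, and leaving out array 2 of that line moved it to 2.17. The mean of the Col1a1 probe sets gave 2.33. The summed level of all 7 markers, on a log2 scale, was 10.04 and 10.83 in the NSCL61 arrays and 11.61 and 12.68 in the NSCL61-sox11 arrays, and Lum, the untested marker, lay below the filter. Of the neuronal markers, 2 of 5 tested rose, Tubb3 (1.50) and Syt1 (0.62). Uncalled among the tested neuronal markers were Stmn2 (0.22), Rbfox3 (-0.08) and Syp (-0.07), while Map2, Snap25 and Dcx lay below the filter. Of the oligodendrocyte markers, 1 of 4 tested rose, Pdgfra (1.91). The other tested oligodendrocyte markers, Cspg4 (-0.07), Mbp (-0.11) and Mag (-0.14), were not called. The Syt1 call was lost without NSCL61 array 1 (0.0539) or NSCL61 array 2 (0.0737) and with both control scalings (0.418 and 0.109). By limma, 0 of 5 tested astrocyte markers (Gja1 -0.12, Gfap -0.29), 0 of 2 microglial (Csf1r -0.15, Cd68 -0.15) and 0 of 4 endothelial ones (Flt1 0.46, Kdr 0.10) were called, with 1, 0 and 2 at an unadjusted p under 0.05. The remaining tested endothelial markers, Cdh5 and Cldn5, differed by -0.59 and 0.09, so the signs in that list were mixed. The part of other cell types in the results below was not tested, and in whole cultures a lower share of cells with a transcript and less of it per cell cannot be told apart.

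The members that were called belong to SoxB and SoxD. Sox2 and Sox21 fell in NSCL61-sox11, Sox13 fell and Sox5 rose, while no probe set of Sox9 or Sox10 was called and Sox1 and Sox8 lay below the filter. Of the 26 probe sets, 14 could be tested and 12 lay below the filter, so that 8 of 10 genes had a tested probe set. Among the 14, 1 rose and 4 fell, and across all tested probe sets 17.3% were called (8.99% rose and 8.32% fell). By gene, each represented by its brightest tested probe set, 1 of the 8 rose and 3 fell, against 19.2% of all 13084 genes (10.0% rose and 9.19% fell). The median gene log2 fold change was -0.21 over the 8 tested genes and -0.02 over all genes tested. It was -0.57 over the 3 tested SoxB genes, -0.04 over the 3 SoxD genes and -0.21 over the 2 SoxE genes. Arrays of the lines did not overlap for 9 of the 14 tested probe sets, with NSCL61-sox11 lower for 7 and higher for 2. Such separation was common on these arrays: it held for 60.5% of all tested probe sets (32.4% lower and 28.1% higher).

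**Figure D1:**
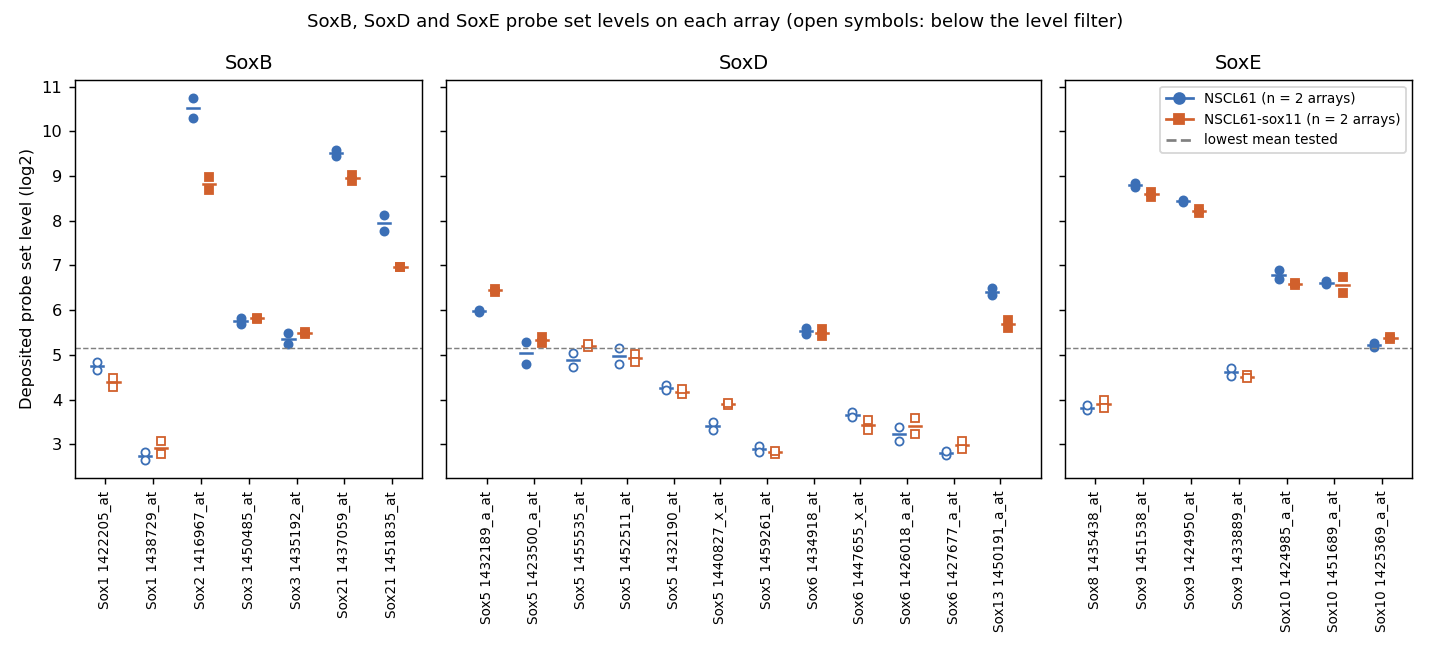
Level of each probe set of the SoxB, SoxD and SoxE genes on each of the 4 arrays (log2 units, as deposited), with 1 symbol per array (circles NSCL61, squares NSCL61-sox11), a short bar at each line's mean, open symbols for probe sets below the level filter and a dashed line at 5.15, the lowest tested mean. Both NSCL61-sox11 arrays of Sox2 lie at 8.68 and 8.97, below both NSCL61 arrays at 10.29 and 10.75, while the lines overlap on both Sox3 probe sets and on the tested Sox6 probe set.

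Sox2 and Sox21, both of SoxB, carried 3 of the 4 probe sets that fell, so the sequence before their transcription starts is shown. The windows are the 250 bases before the start, 5′ to 3′ on the gene's strand, from RefSeq on GRCm38.p6. That build belongs to the reference, since the values name no build. Sox2 is on the forward strand at chr3:34649745-34649994 and Sox21 on the reverse strand at chr14:118237031-118237280. Capitals mark matches, on either strand, to ACAAAG or ACAATG (Sox-type motifs), ATGCAAAT (the octamer of POU factors, with which SoxB1 proteins pair), CCAAT (the NF-Y box) and GGGCGG (the GC box). No match overlapped another.
Sox2: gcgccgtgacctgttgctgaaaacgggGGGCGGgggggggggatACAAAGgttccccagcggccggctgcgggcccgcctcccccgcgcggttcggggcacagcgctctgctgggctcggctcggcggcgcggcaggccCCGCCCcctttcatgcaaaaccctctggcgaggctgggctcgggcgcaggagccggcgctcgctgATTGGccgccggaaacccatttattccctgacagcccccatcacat
Sox21: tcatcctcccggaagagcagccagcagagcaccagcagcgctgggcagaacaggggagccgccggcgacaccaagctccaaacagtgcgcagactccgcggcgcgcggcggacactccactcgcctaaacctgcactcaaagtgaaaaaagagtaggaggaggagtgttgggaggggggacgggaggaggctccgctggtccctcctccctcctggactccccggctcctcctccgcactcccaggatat
The Sox2 window held 1 ACAAAG, whose first base lies 206 bases before the start, 2 GC boxes at 223 and 111 bases, 1 of them on the opposite strand, and 1 reverse CCAAT at 46 bases. The Sox21 window held none of these motifs. Among 32851 windows of the same length in the reference table, 16.5% held ACAAAG, 10.7% ACAATG, 1.60% ATGCAAAT, 33.8% CCAAT and 32.7% GGGCGG. Both windows were rich in GC, with 72% and 27 CpG for Sox2 and 65.2% and 17 CpG for Sox21, against medians of 52.4% and 6 CpG over the reference windows. These matches are a description of letters in a window; no binding was measured. The windows listed for Sox5 and Sox13, the other called genes, lie inside the annotated genes and are not shown. They differed in composition: the Sox5 window held 3 CpG, 39.6% GC and 1 ACAATG, and the Sox13 window 31 CpG, 72.4% GC and none of the motifs.

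Sox2, the SoxB1 factor that marks neural stem cells, had the lowest adjusted p of the 14 tested probe sets. On 1416967_at, its only probe set, it read 10.29 and 10.75 in the NSCL61 arrays and 8.68 and 8.97 in the NSCL61-sox11 arrays. The lines were apart by 1.32 at their nearest arrays, more than the spread of 0.46 within NSCL61 and 0.29 within NSCL61-sox11. The mean went from 10.52 ± 0.32 (SD, n = 2) to 8.83 ± 0.21 (SD, n = 2), which is a change of -1.70 (SE 0.17, limma adjusted p = 0.00186). Among all 13084 genes, 43 including Sox2 fell at least as far, and 170 genes (1.30%) fell 2-fold or more. Sox2 was the only one of the 8 tested members to fall 2-fold or more by its representative probe set. It stayed called in each of the 14 alternative analyses, with log2 fold changes of -2.05 to -1.47 and adjusted p-values up to 0.00789. Alternatives that alter only the filter, the variance model, the replicate block or the choice of probe sets could not move the size of this change from -1.70. Sox2 has 1 probe set, so they could alter only its adjusted p. At its lower level in NSCL61-sox11, 8.68 or more, Sox2 still lay over the filter at 5.15. The non-member genes nearest to Sox2 in pattern, by the Euclidean distance of values centred on the gene mean over the 4 arrays, were Chst11 (distance 0.09), Erc2 (0.16) and Mgat4a (0.18). Their log2 fold changes were -1.63, -1.71 and -1.52, and over 4 arrays such likeness is a description only. Sox2ot, the long non-coding RNA gene within which Sox2 lies, read 3.13 and 3.61 in NSCL61 and 3.24 and 3.24 in NSCL61-sox11, below the filter and with overlapping arrays.

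Sox21, the SoxB2 repressor, fell on both of its probe sets, by different amounts. On the brighter, 1437059_at, it read 9.45 and 9.59 in NSCL61 and 9.03 and 8.88 in NSCL61-sox11. The change was -0.57 (SE 0.10, limma adjusted p = 0.0125). On 1451835_at it read 7.77 and 8.13 in NSCL61 and 6.97 on both NSCL61-sox11 arrays. That change was -0.98 (SE 0.14, limma adjusted p = 0.00621), or 1.97-fold. Both NSCL61-sox11 arrays were lower on both probe sets. The call of 1437059_at was lost without NSCL61 array 1 (adjusted p = 0.0611) and without NSCL61 array 2 (0.11), while 1451835_at stayed called whichever array was left out. Sox2 and Sox21 therefore both fell, and the difference in size between their falls was not tested.

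The other SoxB1 genes read near or below the filter. Sox3, which shares progenitor functions with Sox2, read 5.83 and 5.70 in NSCL61 and 5.83 and 5.81 in NSCL61-sox11 on 1450485_at (log2 fold change 0.06, SE 0.10, limma adjusted p = 0.761). Its other probe set, 1435192_at, read 5.48 and 5.25 against 5.46 and 5.51 (0.12, SE 0.12, adjusted p = 0.546). The arrays of the lines overlapped on both, and the sign of the difference on 1450485_at turned with the scaling (-0.30 with the poly-A controls and -0.16 with the hybridisation controls) and without NSCL61 array 2 (-0.0072). Sox1 lay below the filter on both probe sets, at 4.65 and 4.83 against 4.29 and 4.49 on 1422205_at. In a fit of all 45037 probe sets that change was -0.35 (SE 0.13, adjusted p = 0.146), and 1438729_at stayed at 3.06 or less on every array.

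Among the SoxD genes, Sox13 and Sox5 moved in opposite directions. Sox13, a SoxD factor studied in T cells and in the developing nervous system, read 6.33 and 6.50 in NSCL61 and 5.61 and 5.79 in NSCL61-sox11 on its only probe set, 1450191_a_at. The lines did not overlap, and the log2 fold change was -0.72 (SE 0.12, limma adjusted p = 0.0109), or 1.65-fold. Without NSCL61 array 2 the change was -0.63 and the call was lost (adjusted p = 0.0735).

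Sox5, which with Sox6 supports SoxE proteins in cartilage and holds back oligodendrocyte differentiation, read 5.96 and 6.01 in NSCL61 and 6.48 and 6.41 in NSCL61-sox11 on 1432189_a_at. Both NSCL61-sox11 arrays were higher, by 0.46 on average (SE 0.10, limma adjusted p = 0.025). The call was lost in 6 of its 13 alternatives, against 0 of 14 for Sox2, 2 of 14 for Sox21 and 1 of 13 for Sox13. Among these were the analyses without NSCL61 array 1 (adjusted p = 0.136), NSCL61 array 2 (0.109) or NSCL61-sox11 array 1 (0.0737). It was also lost with arrays scaled to the poly-A controls (0.11, adjusted p = 0.751) or the hybridisation controls (0.24, adjusted p = 0.326), scalings that lower the median of all genes to -0.38 and -0.24. The mean of both tested Sox5 probe sets gave 0.38 (adjusted p = 0.0907), an alternative that could not move Sox2, which has 1 probe set. The second of these Sox5 probe sets, 1423500_a_at, has an NSCL61 mean of 5.04, under the filter.

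The 7 Sox5 probe sets did not move as 1. The second tested one, 1423500_a_at, read 4.79 and 5.28 against 5.40 and 5.26, with overlapping arrays (0.29, SE 0.18, limma adjusted p = 0.319). It passed the filter through its NSCL61-sox11 arrays, its NSCL61 mean being 5.04, so the size of that difference is uncertain. Of the 5 below the filter, 1440827_x_at read 3.49 and 3.31 in NSCL61 and 3.89 and 3.92 in NSCL61-sox11, and was called in the fit of all probe sets (0.50, adjusted p = 0.0318). It was the only called one of the 12 member probe sets below the filter. In that fit 10.1% of all probe sets (5.44% upwards) were called, those above the filter included. The share among probe sets below the filter alone was not counted. On 1455535_at the NSCL61-sox11 arrays were also higher, at 5.17 and 5.25 against 4.72 and 5.05, without a call (adjusted p = 0.227). The other 3 differed by -0.04 to -0.09. In pattern, the genes nearest to Sox5 on 1432189_a_at were Tmem185b (distance 0.02), Bri3 (0.02) and Stoml1 (0.03), which rose by 0.47, 0.47 and 0.45.

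Sox6, the close relative of Sox5, read 5.61 and 5.47 in NSCL61 and 5.58 and 5.42 in NSCL61-sox11 on 1434918_at, its only tested probe set. The arrays overlapped and the difference was -0.04 (SE 0.12, limma adjusted p = 0.851), and leaving out NSCL61 array 1 turned it to 0.03 and leaving out NSCL61-sox11 array 2 to 0.038. Its 3 other probe sets stayed at 3.72 or less on every array, and none was called in the fit of all probe sets.

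**Figure D2:**
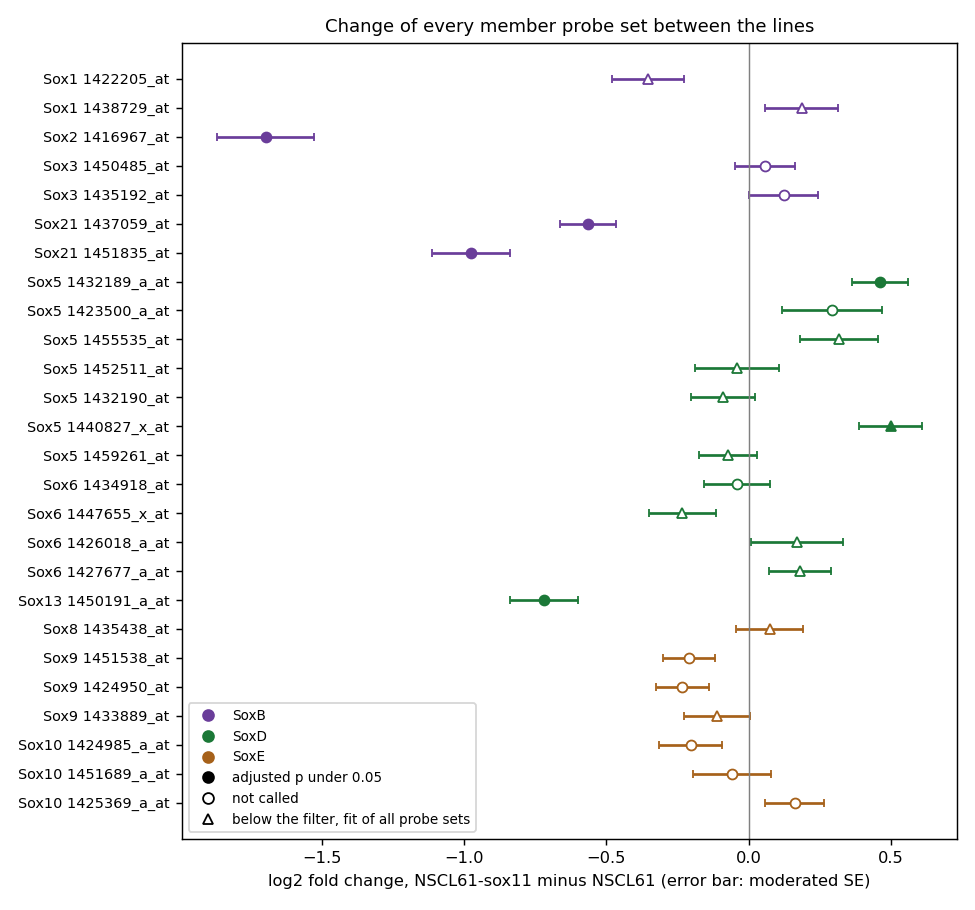
Log2 fold change (NSCL61-sox11 minus NSCL61) of each of the 26 probe sets of the SoxB, SoxD and SoxE genes, with the moderated standard error as the bar; circles are tested probe sets, triangles those below the filter (from the fit of all probe sets), and filled symbols have an adjusted p under 0.05. Sox2 stands at -1.70, the 2 Sox21 probe sets at -0.98 and -0.57, Sox13 at -0.72 and the called Sox5 probe set at 0.46, and the 5 tested SoxE probe sets lie between -0.23 and 0.16.

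SoxE genes were not called on any of their 5 tested probe sets by limma; 1 of the 5 had an unadjusted p under 0.05. Sox9, the SoxE factor that starts gliogenesis, was lower on both NSCL61-sox11 arrays of both tested probe sets. Of all tested probe sets, 32.4% were lower on both of these arrays. On 1451538_at it read 8.85 and 8.76 in NSCL61 and 8.54 and 8.64 in NSCL61-sox11. The log2 fold change was -0.21 (SE 0.09, limma adjusted p = 0.174). On 1424950_at it read 8.48 and 8.42 against 8.16 and 8.26 (-0.23, SE 0.09, adjusted p = 0.14). The gaps between the lines, 0.12 and 0.15, were wider than the spreads within them, 0.09 in both lines on the first probe set and 0.06 and 0.10 on the other. How many other probe sets had such gaps was not counted, and both Sox9 probe sets read the same RNA, so no weight is put on them. No alternative called 1451538_at, with adjusted p-values of 0.0716 to 0.563. The remaining Sox9 probe set, 1433889_at, lay below the filter at 4.47 to 4.71.

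Sox10, which drives oligodendrocyte and Schwann cell maturation, was measured by 3 tested probe sets that did not share a sign. On 1424985_a_at it read 6.89 and 6.69 in NSCL61 and 6.61 and 6.56 in NSCL61-sox11 (log2 fold change -0.20, SE 0.11, limma adjusted p = 0.264). On 1451689_a_at the lines overlapped, at 6.66 and 6.58 against 6.73 and 6.39 (-0.06, adjusted p = 0.821). On 1425369_a_at the NSCL61-sox11 arrays were higher, at 5.40 and 5.35 against 5.17 and 5.26 (0.16, adjusted p = 0.353). Sox8, the SoxE gene that overlaps Sox9 and Sox10 in function, read 3.76 and 3.88 against 3.99 and 3.80 on its single probe set, below the filter and with overlapping arrays.

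**Figure D3:**
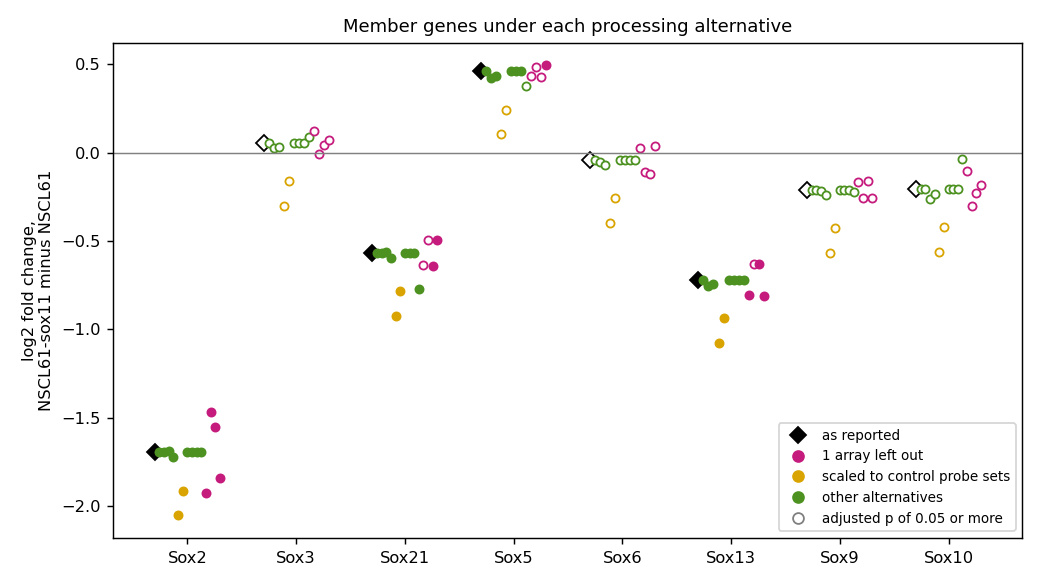
Log2 fold change of each tested member gene as reported (diamonds) and under each alternative (circles: filters, scalings, variance model, replicate block, probe set choice and each array left out in turn), with open symbols where the adjusted p was 0.05 or more. Sox2 stays between -2.05 and -1.47, whereas Sox3 and Sox6 lie on both sides of 0 and Sox5 runs from 0.11 to 0.50.

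Genes next to the members could be read in few cases. Of the 20 nearest annotated neighbours, 1 on each side of each gene, 4 were named on the array: Cerox1 beside Sox8, BC006965 and Gm11681 beside Sox9, and Polr2f beside Sox10. None was called. Polr2f, an RNA polymerase subunit, changed by -0.05 and -0.04 on its 2 probe sets (limma adjusted p = 0.832 and 0.829), and the others lay below the filter. No named neighbour was available for Sox2, Sox21, Sox13 or Sox5, the genes that were called.

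The rest of the Sox family was read for comparison. Of 9 such genes, 6 were tested, 2 rose and 0 fell (33.3% called, against 19.2% of all genes). Beside Sox11 the riser was Sox12, another SoxC gene, on its only tested probe set, 1455562_at. The other Sox12 probe sets, 1439754_at and 1456882_at, lay below the filter. They differed by 0.06 and -0.11, without a call in the fit of all probe sets. On 1455562_at Sox12 read 6.26 and 6.22 against 6.91 and 6.83 (log2 fold change 0.63, SE 0.10, limma adjusted p = 0.00871). Its call was lost with the poly-A controls (0.28, adjusted p = 0.415), the hybridisation controls (0.41, 0.0876), and without NSCL61 array 1 (0.0538) or array 2 (0.0628). Sox4, the remaining SoxC gene, read 11.78 and 12.04 against 12.07 and 12.08 on its brightest probe set (0.16, adjusted p = 0.279).

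Among the genes with which SoxB1 proteins work in progenitors, Pou3f3 rose and Pax6 and Vim fell. Thus 1 of 15 tested rose and 2 fell, 20.0% called against 19.2% of all genes (10.0% rose and 9.19% fell), with a median log2 fold change of -0.03 against -0.02 over all genes. The all-gene shares and median are the ones to set beside each list below, and with so few genes a list no share is read as particular to it. Pou3f3, a POU factor of the neural tube, rose from 5.85 and 5.72 to 6.77 and 6.84 (log2 fold change 1.02, limma adjusted p = 0.00191), a call lost with the poly-A controls (0.66, 0.0748). Pax6, a progenitor factor that partners Sox2, fell from 7.91 and 8.03 to 7.42 and 7.62 (-0.45, adjusted p = 0.0402), a call lost without NSCL61 array 1 (0.125), NSCL61 array 2 (0.213) or NSCL61-sox11 array 1 (0.106). Vim, an intermediate filament gene, fell by 0.21 on the log2 scale (adjusted p = 0.0201), and was not called without NSCL61 array 1 (0.139) or array 2 (0.192), with the poly-A controls (0.0864), without the intensity trend (0.159) or with the mean of its probe sets (-0.17, 0.129). The 12 others were not called, and their signs were mixed. Among them Nes (0.05), Notch1 (0.54) and Hes1 (0.30) had higher means in NSCL61-sox11, and Jag1 (-0.31), Hes5 (-0.21) and Msi1 (-0.08) lower ones. The arrays of the lines overlapped for Nes, Notch1, Hes1 and Jag1.

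Among proneural and early neuronal genes, which SoxB1 proteins hold back, 6 were tested, 1 rose and 1 fell (33.3% called), with a median of 0.06. Eomes, a marker of intermediate neuronal progenitors, fell from 8.10 and 7.47 to 4.35 and 4.54 (log2 fold change -3.34, limma adjusted p = 0.000317). Its NSCL61-sox11 arrays lie under the filter, which Eomes passed through its NSCL61 arrays, so the size of the fall is uncertain; the mean of its probe sets gave -2.44. Tubb3, the neuronal beta-tubulin and a known Sox11 target, rose from 5.76 and 6.25 to 7.55 and 7.45 (1.50, adjusted p = 0.00288). Neurog2, Neurod1 and Dcx lay below the filter.

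Of 8 tested oligodendrocyte lineage genes, on which SoxE proteins act, 2 rose and 0 fell (25.0% called), with a median of -0.09. Pdgfra, the PDGF receptor of oligodendrocyte precursors, also made by fibroblasts, rose from 7.97 and 8.35 to 9.97 and 10.18 (log2 fold change 1.91, limma adjusted p = 0.00065). Tcf7l2, a Wnt effector, rose by 0.75 (adjusted p = 0.0251), and lost the call without NSCL61 array 1 (0.115) and with the poly-A controls (0.39, 0.25). Of the uncalled tested genes, Cnp differed most (-0.47, limma adjusted p = 0.111), and S100b alone had a higher mean in NSCL61-sox11 (0.08). Olig1 and Olig2, defining factors of the lineage, lay below the filter on every array, at 4.08 or less.

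Of 13 tested astroglial genes, 3 rose and 2 fell (38.5% called), with a median of -0.12. Nfix, a nuclear factor of gliogenesis, rose by 1.64 (limma adjusted p = 0.0001). Slc1a3, the glial glutamate transporter, rose by 1.19 (adjusted p = 0.00298), by 2.69 when probe sets prone to cross-hybridisation were left out, and by 2.08 as the mean of its probe sets. Hopx, a radial glia marker, fell by 1.26 on the log2 scale (adjusted p = 0.00809; 0.0529 without NSCL61 array 2), and Apcdd1, a Wnt inhibitor, fell by 1.18 (adjusted p = 0.00313). Nfib, the third to rise, was outside the naming rule's limit of 4 and changed by 0.53.

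Of 8 tested cartilage genes, classical targets of Sox9 with Sox5 and Sox6, 2 rose and 0 fell (25.0% called), with a median of 0.01. Col2a1, the main target, read 6.27 and 6.24 against 6.64 and 7.09 (log2 fold change 0.61, limma adjusted p = 0.0444), and Col11a1 went from 6.99 ± 0.01 to 8.16 ± 0.59 (SD, n = 2 each; 1.16, adjusted p = 0.0252). Neither was called without NSCL61 array 1 (0.164 and 0.114) or array 2 (0.174 and 0.115), and Col2a1 was not called either without NSCL61-sox11 array 2 (0.39, 0.0974). Col2a1 also lost its call with no filter (0.0513), quantile normalization (0.0519), no intensity trend (0.0536) and both control scalings (0.445 and 0.104). The other 6, among them Acan (0.03), were not called.

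Of 13 tested neural crest, Schwann cell and melanocyte genes, 4 rose and 0 fell (30.8% called), with a median of 0.36. Snai2, a zinc finger repressor of the crest, rose from 8.89 ± 0.04 to 10.96 ± 0.05 (SD, n = 2 each; log2 fold change 2.07, limma adjusted p = 0.0001). Pax3, a crest and dorsal neural tube factor, rose by 1.90 (adjusted p = 0.00123), Snai1 by 1.55 (0.00307) and Msx2 by 0.75 (0.00669; 0.269 with the poly-A controls, which gave 0.39). Egr2, the Schwann cell factor that Sox10 activates, read 5.93 and 7.02 against 7.53 and 8.57, a difference of 1.58 that was not called (adjusted p = 0.0537). Mitf, the melanocyte target of Sox10, differed by 0.36 (adjusted p = 0.0852). The other uncalled tested genes of this list had lower means in NSCL61-sox11, Ngfr (-0.23) and Zic1 (-0.22) the furthest, except Tfap2a (0.48). Of the fibroblast markers given above, 4 of 6 tested also rose, and Snai2 and Snai1 are active in such cells too. Whether these rises are linked was not tested.

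**Figure D4:**
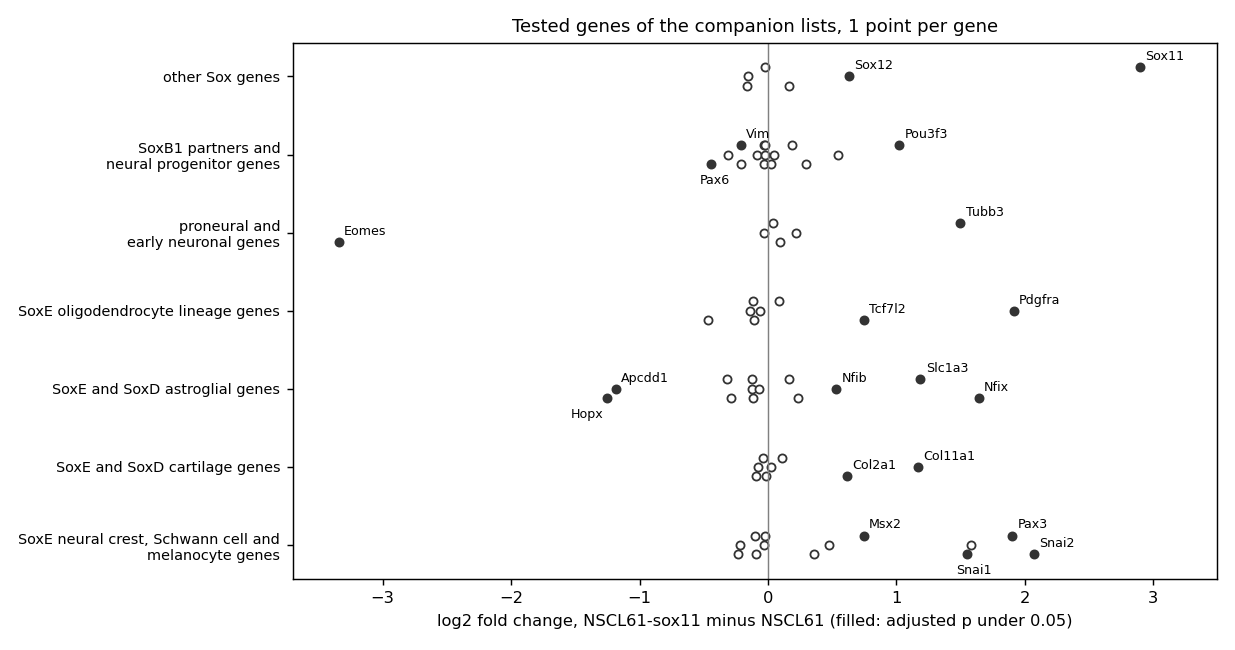
Log2 fold change (NSCL61-sox11 minus NSCL61) of each tested gene of the 7 comparison lists, 1 point per gene, filled and named where the adjusted p was under 0.05. Most points lie near 0, with Eomes at -3.34 and Sox11 at 2.90 at the ends, and 4 of the 13 tested neural crest genes lie filled on the right.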

How the data were processed

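Per the labels' protocols, column-purified total RNA was transcribed in vitro with a biotin label, and each sample was hybridised to its own M430_2 array. The authors deposited 1 value per probe set and array, read here as log2 because the 45101 values of an array run within 2.13 to 14.62; their summarisation and normalization are not given in the sources used here. They were used without further scaling. GEO's platform annotation gave 34945 non-control probe sets 1 symbol, 932 several and 9160 none, and 0 symbols were updated; 64 control probe sets were left out. limma 3.58.1 in R 4.3.3 (lmFit, eBayes with intensity trend) compared the lines on all 4 arrays, with 2 residual degrees of freedom, 6.36 after moderation. Errors are SDs beside levels and moderated standard errors beside log2 fold changes. Precision is limited by having 4 arrays.

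The members and gene lists were chosen with earlier results of these data known. Named are all members, their nearest neighbours, and the 3 genes most like the largest fall and rise. In each list the called genes with the largest changes are named (4 at most), or its 2 brightest if it had no call. Other list genes were chosen after their values were seen. These are Sox4, Nfib, Nes, Msi1, Hes5, Notch1, Hes1, Acan, Egr2, Mitf and those below the filter. Also so chosen were Cdh5, Cldn5, Cspg4, Mbp, Mag, Cnp, S100b, Ngfr, Zic1, Tfap2a, Jag1, Stmn2, Rbfox3 and Syp. Protein sequences were not used here, so the planned HMG box comparison was not made. Promoter windows came from RefSeq (GRCm38.p6): 7 of the 10 genes matched. Tested on simulated data of 27022 probe sets for this comparison, the fit recovered 8.96% of 67 simulated 1.5-fold changes, 83.6% of 67 2-fold ones and 100% of 66 4-fold ones, with 9 false calls. Only those probe sets were changed in the simulation, while 17.3% were called in the data, so its adjusted p cut-off was stricter. The recovered shares therefore do not measure how many real changes of these sizes were found. Alternatives were no filter or the brightest 40% of probe sets, quantile normalization, median centring, scaling to the poly-A or hybridisation controls, no intensity trend, the replicate number as a block, no _x_at and _s_at probe sets, the mean of a gene's probe sets, and each array left out.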

Additional observations from a re-analysis of the deposited data

How the results depend on the processing

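The direction and call of Sox2 held in all 14 alternatives and the missing call of Sox9 and Sox10 in all of theirs. The 5 member probe sets called became 3 with the brightest 40% of probe sets, where 7 were tested, and the 4 member genes became 2. Over all genes, 1161 rose and 1222 fell in that fit, of 9641 tested. Fewer members were called when either NSCL61 array was left out, and calls over all genes became fewer there too. The reversed differences were Sox3 with the poly-A controls (-0.30), with the hybridisation controls (-0.16) and without NSCL61 array 2 (-0.0072), and Sox6 without NSCL61 array 1 (0.03) or NSCL61-sox11 array 2 (0.038), all uncalled; with 1 array left out Sox3 ran from -0.0072 to 0.12 and Sox6 from -0.12 to 0.038. Counts of comparison list genes moved as follows. With the brightest 40%, 1 other Sox gene and 1 proneural gene were called; with either control scaling, 1 other Sox gene and 1 cartilage gene. No filter, quantile normalization and no intensity trend each left 1 cartilage gene. With 1 array left out the ranges were 1 to 2 for other Sox genes, 1 to 4 for SoxB1 partners, 1 to 3 for oligodendrocyte genes, 3 to 6 for astroglial genes and 0 to 2 for cartilage genes. With the replicate block, 6 SoxB1 partner genes (3 up, 3 down) and 8 neural crest genes (7 up, 1 down) were called. Over all 13084 genes that fit called 2389 up and 2441 down, against 1308 up and 1202 down as reported, so these larger counts are not read as particular to the lists. The block assumes that equal numbers pair the arrays, which the labels do not state; same-numbered arrays deviated together with a correlation of 0.41 over only 2 pairs. Fewer genes tested accounts for the stricter filter; other causes were not tested. Sox1, Sox3, Sox6 and Sox8 read near or below the filter, and their signal over background was not measured. The absence of a call for these genes is therefore uncertain. Sox13 in NSCL61-sox11 (5.61 and 5.79) and Sox5 in NSCL61 (5.96 and 6.01 on 1432189_a_at) also read near the filter, so the sizes of their changes are uncertain. The fit recovered few simulated 1.5-fold changes, in a simulation with far fewer changed probe sets than were called in the data.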
